A study of Homo sapiens with 2 samples.

Results

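The genes of Polycomb repressive complex 2 (PRC2) were examined for peaks of methylated ERG (mERG) in VCaP prostate cancer cells. The group comprised 10 genes, chosen by name: the core subunits EZH2, EZH1, EED, SUZ12, RBBP4 and RBBP7, and the accessory subunits JARID2, AEBP2, MTF2 and PHF19. A peak was assigned to the gene that the peak list names for it, and a gene named by no peak was counted as having no peak detected. Of the 10 genes, 7 were named by at least 1 peak, with 38 of the 18070 peaks of the list and 7 of the 5011 genes it names. Over all protein-coding genes the share named by a peak was 21.0%, and it moved with gene length.

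VCaP is an established prostate cancer line that carries the TMPRSS2-ERG fusion and so overexpresses the ETS transcription factor ERG. Chromatin was precipitated with a rabbit polyclonal antibody raised against ERG mono-methylated at the lysine that EZH2 modifies. From VCaP cells, 1 library of the mERG precipitate and 1 control were sequenced. The title of the control calls it input and its antibody label IgG, so that its kind was not settled. There were no replicates, and the list gives no read counts, so that the depth behind each peak is unknown.

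PRC2 is the enzyme complex that methylates histone H3 on a lysine whose tri-methylation marks silenced genes. EZH2 or its paralogue EZH1 carries the catalytic activity, which needs EED and SUZ12, and the accessory subunits divide the complex into forms that reach chromatin in different ways. EZH2 is abundant in advanced prostate cancer, and the study asked where ERG that EZH2 has methylated sits in the genome. Whether such ERG lies on the genes of EZH2's own complex is the question of the comparisons here.

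The strongest peak of each of 4 PRC2 genes is shown first, because by their strongest peak these genes ranked highest in the group. The single peak of SUZ12 is added, because its window was the only one of the 38 that held a near match to the full ETS core. Each sequence is the plus strand of hg19, 201 bases around the centre of the peak, with capitals marking GGAA, the invariant centre of ETS factor sites, or TTCC, the same bases on the other strand. The windows were chr1:93577350-93577550 for MTF2, chr11:85959511-85959711 for EED, chr7:148527893-148528093 for EZH2, chr12:19595632-19595832 for AEBP2 and chr17:30270536-30270736 for SUZ12.
MTF2: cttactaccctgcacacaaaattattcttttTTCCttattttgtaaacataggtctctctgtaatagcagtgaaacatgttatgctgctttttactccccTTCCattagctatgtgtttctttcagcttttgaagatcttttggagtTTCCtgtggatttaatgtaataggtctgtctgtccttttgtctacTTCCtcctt
EED: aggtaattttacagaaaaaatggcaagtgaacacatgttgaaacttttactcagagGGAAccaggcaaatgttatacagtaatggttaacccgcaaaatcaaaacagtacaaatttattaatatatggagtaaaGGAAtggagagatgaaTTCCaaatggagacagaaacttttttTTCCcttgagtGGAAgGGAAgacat
EZH2: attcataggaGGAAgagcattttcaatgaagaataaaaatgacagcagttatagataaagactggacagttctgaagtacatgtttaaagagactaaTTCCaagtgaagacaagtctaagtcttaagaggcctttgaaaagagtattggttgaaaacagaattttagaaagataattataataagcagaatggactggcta
AEBP2: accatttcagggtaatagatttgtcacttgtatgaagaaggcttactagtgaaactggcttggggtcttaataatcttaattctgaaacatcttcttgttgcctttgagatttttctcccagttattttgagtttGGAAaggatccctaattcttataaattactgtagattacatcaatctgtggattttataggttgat
SUZ12: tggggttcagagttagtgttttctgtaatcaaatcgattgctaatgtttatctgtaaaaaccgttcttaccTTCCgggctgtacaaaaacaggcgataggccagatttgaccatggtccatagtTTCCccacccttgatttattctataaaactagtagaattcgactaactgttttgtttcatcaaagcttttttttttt
The window of EED held 6 occurrences of GGAA or TTCC, that of MTF2 4, those of EZH2 and SUZ12 2 each, and that of AEBP2 1. No exon that GENCODE annotates for these genes overlapped the windows.

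The peaks fell unevenly over the complex. AEBP2 was named by 19 peaks, MTF2 by 7, EZH2 by 6, EED by 3, and EZH1, SUZ12 and RBBP7 by 1 each, while RBBP4, JARID2 and PHF19 were named by 0. Thus AEBP2 alone held 50.0% of the peaks of the group, and both forms of the complex contained a gene with many peaks and a gene with none. Across the whole list, 16.6% of the 29989 genes with a curated RefSeq transcript were named by a peak, and 21.0% of the protein-coding ones. The share among the PRC2 genes was 70.0%, a description of a list chosen with earlier results of these data known. Gene length moved with this share: among protein-coding genes ranked by the length of the canonical transcript, 4.73% of the shortest decile and 39.4% of decile 9 had a peak. The PRC2 genes lay in deciles 5 to 10, where 15.2 to 39.4% of genes had a peak, and the part of length in their count was not tested.

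Of the group's 38 peaks, 21 (55.3%) had a score under 40, as did 46.4% of all peaks. The peak score is the value that the peak caller MACS gave each peak, by its usual convention −10 times the log10 of a p-value, although the list does not state the formula; the lowest score in the list was 33. The median score of the 38 peaks was 38.9, and that of all 18070 peaks was 40.9. A score of at least 50 was reached by 7 of the 38 peaks (18.4%, Wilson 95% interval 9.22 to 33.4%) and by 25.0% of all peaks. These 7 peaks named 4 genes, AEBP2, EED, EZH2 and MTF2, and 6.05% of the curated RefSeq genes had a peak of that strength. Intervals given here and below cover counting error only.

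By location, 37 of the 38 peaks (97.4%, Wilson 95% interval 86.5 to 99.5%) lay in introns, as did 87.6% of all peaks. Of these, 36 lay in introns of the gene's own canonical transcript and 1 in an intron of PLEKHA5, a neighbour of AEBP2. The remaining peak lay in an exon of PLEKHA5. Of the 38 peaks, 0 were annotated to a promoter (Wilson 95% upper bound 9.18%), where 0.277% of all peaks lay. The first intron held 14 of them (36.8%), against 28.1% of all peaks. None of the 38 peaks overlapped an exon of the canonical transcript of its gene. Counting from the transcription start site (TSS), 0 PRC2 genes were reached by a peak at up to 1 kb and 6 at up to 10 kb, against 7.09% of the curated RefSeq genes for the latter distance, and 0.481% of all peaks lay at up to 1 kb; EZH2 was the 1 gene with peaks that all lay farther away. The peaks of the PRC2 genes were thus intronic, and the lack of peaks at their start sites is what the whole list, with few peaks there, also shows.

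**Figure D1:**
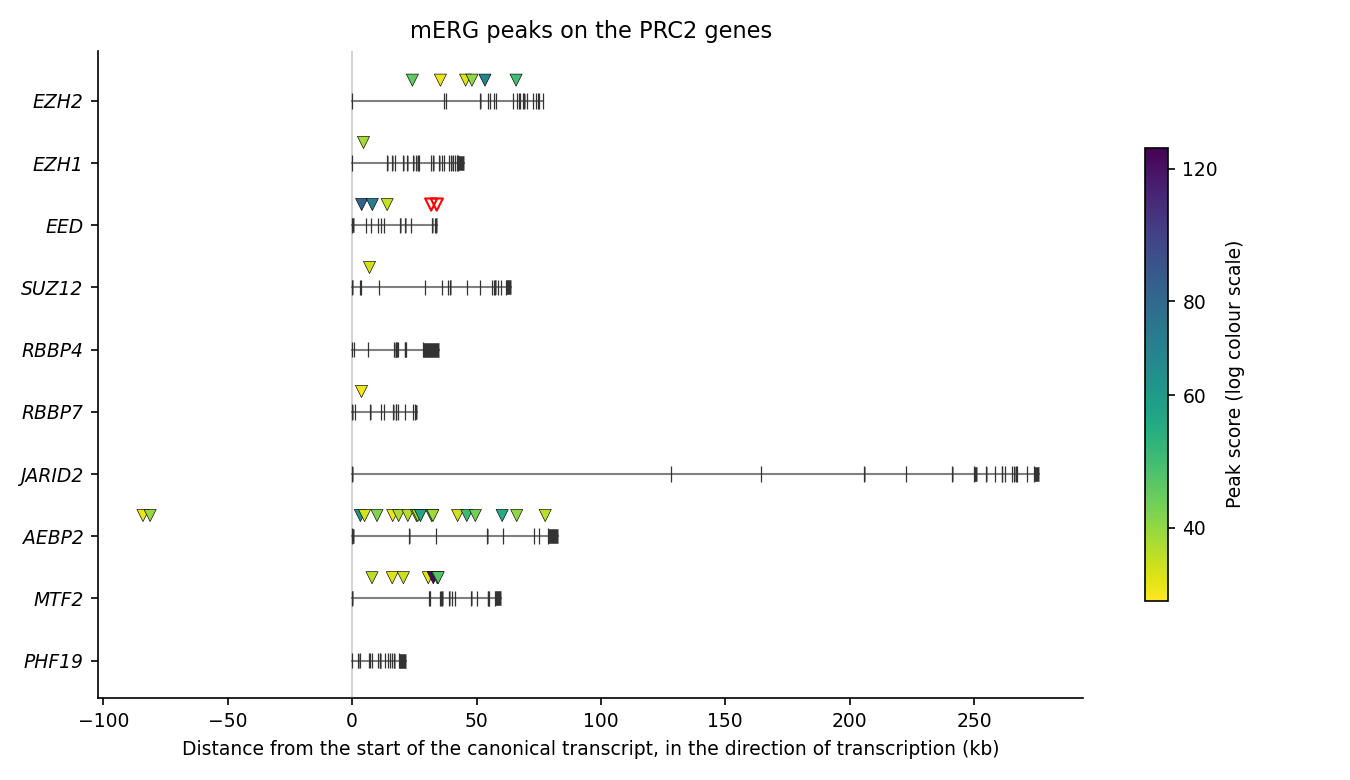
Peaks of the 10 PRC2 genes along the canonical transcript of each, in the direction of transcription (x axis, kb from its start); dark blocks and ticks are exons, filled triangles are peaks named for the gene, coloured by score, and open red triangles are peaks inside the gene that carry another gene's name. The 2 open triangles lie at the end of EED, and 2 of the triangles of AEBP2 lie over 80 kb before its start.

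EZH2, the catalytic subunit that methylates ERG as well as histone H3, had 6 peaks, and each lay in an intron. In the direction of transcription, the first lay at chr7:148556969-148557370, in intron 1 of 19 of the transcript used by the list, 23.4 kb downstream of the TSS, with a score of 45.0. The second, at chr7:148545678-148546156, also in intron 1, was 34.7 kb from the TSS with a score of 33.2. The third peak, at chr7:148535653-148535911, had a score of 34.45, and the fourth, at chr7:148533056-148533388, had a score of 40.2; they lay in intron 3 of 18, at 44.8 and 47.4 kb. These 4 peaks were spread over introns 1 and 3, ahead of most of the exons. The strongest peak of EZH2, at chr7:148527696-148528290, had a score of 68.7, above 92.1% of all peaks, and lay 52.6 kb from the TSS in an intron numbered 3 of 18 in 1 transcript and 4 of 19 in the canonical one. The sixth, at chr7:148515236-148515749, lay in intron 9 of 18, 65.1 kb from the TSS, with a score of 48.9. Neighbouring peaks of EZH2 were 2.56 to 12.5 kb apart, so that they formed a spaced series along the gene.

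EZH1, the other catalytic subunit, which predominates in cells that divide little, had a single peak. It lay at chr17:40892460-40892936 in intron 1 of 20, 4.37 kb from the TSS, with a score of 38.6. Per length of the canonical transcript, EZH2 had 7.80 peaks per 100 kb (exact Poisson 95% interval 2.86 to 17) and EZH1 2.23 (0.0566 to 12.4). The difference in density between the paralogues was not tested.

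EED, the subunit that reads tri-methylated histone H3 and stimulates the enzyme, carried the 2 highest scores of the group after that of MTF2. Its strongest peak, chr11:85959112-85960110, had a score of 83.4, above 96.1% of all peaks, in intron 1 of 10 and 3.81 kb from the TSS. The second, chr11:85963616-85964186, had a score of 71.2 in intron 3, 8.10 kb from the TSS. The third, chr11:85969698-85970018, had a score of 36.1 in intron 6, 14.1 kb from the TSS. The 3 peaks named for EED thus grew weaker with distance from the start. A further 2 peaks lay in the last part of EED but were named for MIR6755, a microRNA gene whose TSS lies between them: chr11:85987449-85987692 in intron 9 of 10, with a score of 37.2, and chr11:85989626-85989984 at the end of the transcript, with a score of 34.3. Counted by position, EED therefore held 5 peaks, or 14.7 per 100 kb, against 8.81 (exact Poisson 95% interval 1.82 to 25.7) when counted by name.

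SUZ12, the scaffold that holds the core together, had 1 peak, chr17:30270274-30270999, in intron 3 of 15 and 6.59 kb from the TSS. Its score of 35.4 was above that of 20.7% of all peaks. The surroundings of SUZ12 were rich in peaks: 50 lay within 500 kb on either side of the gene, 5.00 per 100 kb, while SUZ12 itself had 1.56 per 100 kb (exact Poisson 95% interval 0.0395 to 8.70). A pseudogene of SUZ12, SUZ12P1, lies 1.16 Mb before it and was named by 1 peak, with a score of 71.3. Of all stretches of 75 bases, the read length, in the SUZ12 peak, 90.3% occurred once in the genome on either strand, and this was the lowest share among the 38 peaks.

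RBBP7 and RBBP4 are closely related histone-binding proteins that also serve in other chromatin complexes. RBBP7 had 1 peak, chrX:16884691-16884930, in intron 2 of 11 and 3.17 kb from the TSS. With a score of 33.1 it was among the weakest of the list, since 1.23% of all peaks had a lower score. The X chromosome held 30 peaks in all, and 2.97% of its protein-coding genes were named by one. RBBP4 had no peak in its 35.0 kb; the nearest was 2.73 kb before its start and named for the neighbouring ZBTB8OS, and 4 peaks in all lay within 500 kb on either side. In this pair the gene with a peak therefore had 1 near the lowest score, and the gene without one had a peak just outside it.

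AEBP2, a zinc finger protein of the PRC2.2 form that binds nucleosomes and helps the enzyme, was the gene with the most peaks in the group. With 19 peaks it ranked 98 among the 5011 named genes, and 2.26% of them had as many. Of these, 17 lay inside AEBP2, in introns 1 to 5 and 7 of the 7 introns of the canonical transcript, with 6 in intron 1 and 5 in intron 2. The strongest and also the closest to the TSS was chr12:19595384-19596081, in intron 1 of 8 and 2.22 kb from the TSS, with a score of 61.9. The last was chr12:19669762-19670325, in intron 7 of 8 and 76.5 kb from the TSS, with a score of 37.0. The peaks inside AEBP2 therefore ran through most of its canonical transcript of 82.7 kb. Their scores were modest, with a median of 39.1 and 3 peaks of at least 50.

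The other 2 peaks named for AEBP2 lay far upstream, inside the gene PLEKHA5, so that their assignment to AEBP2 rests on the nearest TSS alone. The first of all, chr12:19508201-19508469, was 84.3 kb before the TSS in intron 26 of 31 of a PLEKHA5 transcript, with a score of 33.4. The second lay 81.4 kb before the TSS in exon 21 of 26, with a score of 39.6. Inside the canonical transcript, the density was 20.5 peaks per 100 kb, and by name it was 23.0 (exact Poisson 95% interval 13.8 to 35.9), against 2.04 over all gene bodies of chromosome 12. Over the whole span of 317 kb that GENCODE gives AEBP2, the 17 peaks that lie in it gave 5.36 (exact Poisson 95% interval 3.12 to 8.59). This was under the values of MTF2, EZH2 and EED, 11.7, 7.78 and 6.44 by position over their own spans. Within 500 kb on either side of AEBP2 lay 4 peaks, 0.400 per 100 kb, these 2 included. The peaks of AEBP2 were thus gathered in its canonical transcript, and its rank by density depends on the length taken for the gene.

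JARID2, the other PRC2.2 subunit, which recruits the complex and binds DNA and RNA, had no peak over 276 kb, the longest canonical transcript of the 10 genes. No peak of any name lay within 500 kb on either side of JARID2. The gene sits in a stretch of 8.98 Mb between peaks named for NEDD9 and MBOAT1, and this was the longest distance between neighbouring peaks on chromosome 6, where the median distance was 14.1 kb. The silence around JARID2 was therefore regional and extended far beyond the gene. Of the 530 protein-coding genes of 80 to 125% of its length, 37.7% had a peak, and on chromosome 6 it was 5 of 32. For a density of 0, the upper bound of the exact Poisson interval was 1.34 per 100 kb, against 0.861 for the gene bodies of chromosome 6.

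**Figure D2:**
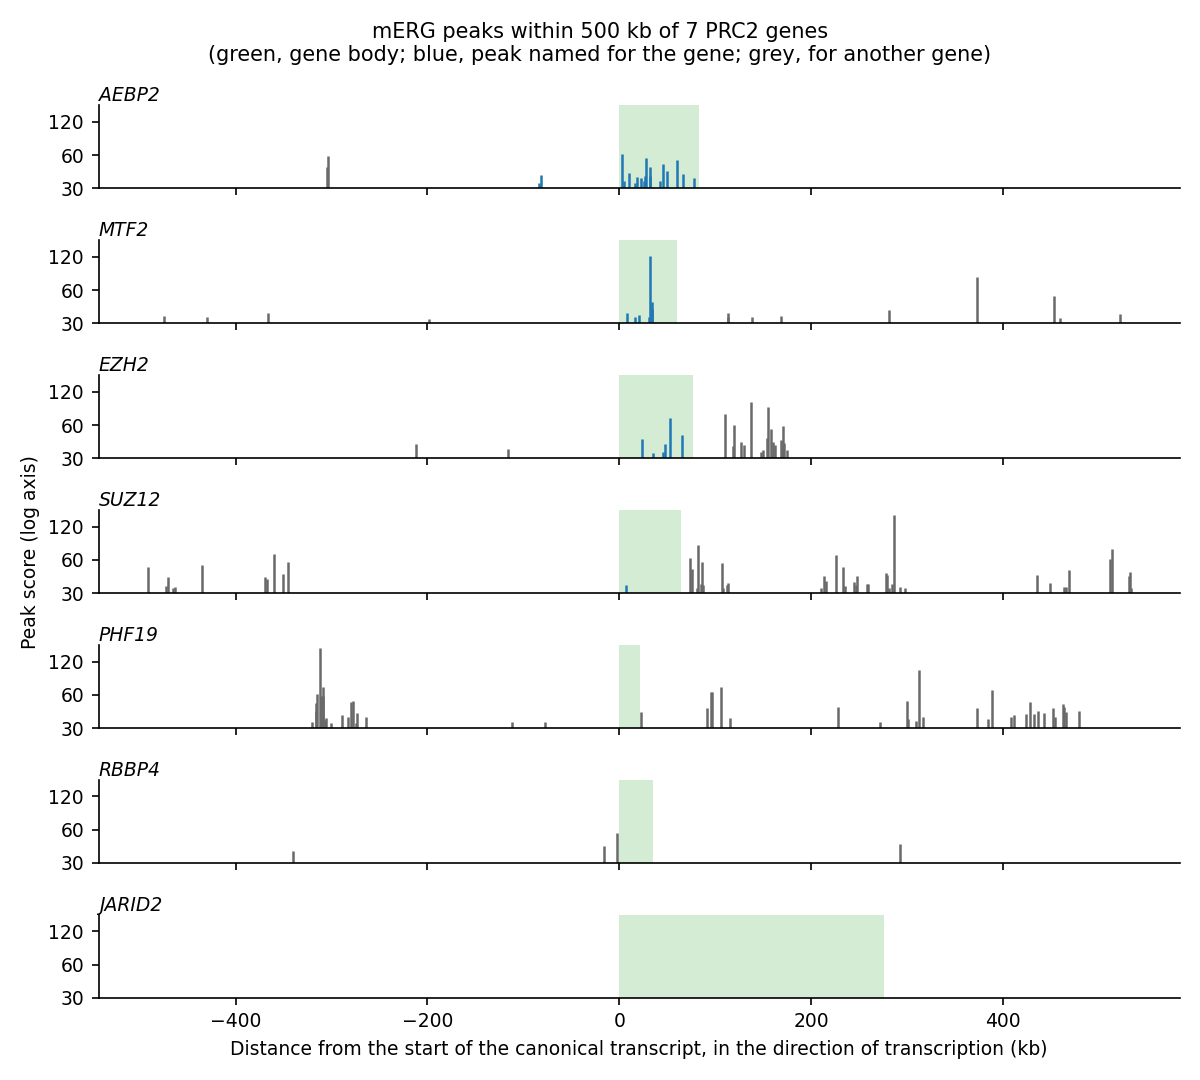
Peaks within 500 kb of AEBP2, MTF2, EZH2, SUZ12, PHF19, RBBP4 and JARID2 (x axis, kb from the start of the canonical transcript in the direction of transcription), with the score as height (y axis, log scale); the green span is the gene, blue lines are peaks named for it and grey lines those named for other genes. The peaks of AEBP2 gather inside the gene, PHF19 has none between 51 peaks around it, and JARID2 has none in the whole range.

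MTF2, a Polycomb-like protein of the PRC2.1 form that binds methylated histone H3 and unmethylated CpG-rich DNA, had the strongest peak of the group. That peak, chr1:93576991-93577910, had a score of 121, above 98.8% of all peaks, and lay in intron 3 of 14, 32.7 kb from the TSS. By its strongest peak, MTF2 ranked 121 among the 5011 named genes. The closest peak to the TSS, and the first by position, was chr1:93552667-93552975, in intron 1 of 12 at 8.03 kb, with a score of 37.0. The last was chr1:93579231-93579628, in intron 3 of 14 at 34.6 kb, with a score of 46.5. Of the 7 peaks, 4 lay in intron 1, which is 30.7 kb long, and 3 in intron 3, which is 4.06 kb long. The strongest peak of MTF2 thus shared a short intron with 2 others, while those in intron 1 were weak, with scores of 34.2 to 37.0.

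PHF19, the other Polycomb-like member and a binder of methylated histone H3, had no peak in its 21.5 kb. Around PHF19 the list was dense: 51 peaks lay within 500 kb on either side, among them 20 named for CDK5RAP2 and 19 for RAB14, and the nearest was 1.59 kb past its end. Nothing particular can be read from a short gene without a peak, since a density of 0 in 21.5 kb allows up to 17.1 per 100 kb by the exact Poisson interval, above the 5.10 per 100 kb of its surroundings. The contrast with JARID2 is in the surroundings, dense around PHF19 and empty around JARID2.

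Set beside the rest of the chromosome, the densities fell into groups. The intervals treat peaks as independent, although neighbouring peaks lay as close as 384 bp in MTF2 and 506 bp in AEBP2. The chromosome value averages over all gene bodies, and 18.7 to 27.4% of genes on chromosomes 1, 7, 11 and 12 had a peak. Lying above that value therefore describes a gene with peaks and is not a test. MTF2 had 11.7 peaks per 100 kb, against 1.06 over the gene bodies of chromosome 1, and EZH2 7.80, against 1.72 on chromosome 7. EED had 8.81, against 1.57 on chromosome 11. By number of peaks, 13.5% of the 5011 named genes had at least as many as MTF2. For EZH2 it was 17.1% and for EED 37.7%. For AEBP2, MTF2, EZH2 and EED the lower bound of the interval lay above the value of the chromosome, as it did for the single peak of RBBP7 (0.0973 against 0.0569 on the X chromosome), although the 500 kb on either side of RBBP7 held 0.300 per 100 kb. For EED this depended on how peaks were counted over the whole span of 77.6 kb that GENCODE gives the gene: the 5 peaks that lie in it gave 6.44 (exact Poisson 95% interval 2.09 to 15), and the 3 named for EED gave 3.87 (0.797 to 11.3), with a lower bound under the chromosome value. The 500 kb on either side of EED held 2.80 peaks per 100 kb, above the lower bound of 1.82 by name and under that of 4.77 for the 5 peaks by position in the canonical transcript. Over its whole span AEBP2, at 5.36, had a lower bound of 3.12, above the 2.04 of chromosome 12. In contrast, EZH1 and SUZ12 lay under the 2.76 of chromosome 17 with intervals that include it. EZH2 also has a neighbour with many peaks, CUL1, named by 19 peaks that begin 33.6 kb past the end of EZH2, and the 500 kb on either side of EZH2 held 2.1 peaks per 100 kb. No copy number or expression of these genes was available in the list, and their part in the densities was not tested.

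Of the 5 remaining genes tied to PRC2, 1 (20.0%) had peaks, near the share over all protein-coding genes (21.0%) and all curated RefSeq genes (16.6%). LCOR, whose locus encodes a PRC2.1 protein, was named by 7 peaks, 6 of them inside the gene and the strongest with a score of 47.9, and the closest was 9.14 kb from a TSS. PHF1, EPOP and LCORL, also of PRC2.1, and EZHIP, an inhibitor of the enzyme, were named by 0. PHF1, EPOP and EZHIP are short genes of 5.43, 3.25 and 1.90 kb, whereas LCORL spans 181 kb and had 1 peak within 500 kb on either side. With these included, peaks were named for MTF2 and LCOR of PRC2.1 and for AEBP2 of PRC2.2, and each form also had genes without one. Since 1 of 5 is near the share over all genes, nothing particular to either form can be read from these 5 genes.

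Other chromatin complexes were counted in the same way. Of 24 genes of PRC1, the Polycomb complex that ubiquitinates histone H2A, 8 (33.3%) were named by a peak, with 27 peaks in all, 14 of them at RYBP. Of 25 genes of the SWI/SNF remodelling complexes, which oppose Polycomb, 4 (16.0%) were named, with 23 peaks, 13 of them at ARID2. The share over all protein-coding genes was 21.0%, and over all curated RefSeq genes 16.6%. Per 100 kb of summed transcript length the PRC2 genes had 5.27 peaks, the PRC1 genes 2.02 and the SWI/SNF genes 1.12, and over all protein-coding gene bodies the density was 1.42. In each list 1 gene held about 1 peak in 2, so the densities describe single genes as much as complexes, and no test of the difference between lists was made. ERG itself, the factor precipitated, was named by 2 peaks, with scores of 35.9 and 33.02.

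The sequence under the peaks of the PRC2 genes was set beside that under all peaks of the list. GGAA or TTCC lay within 100 bp of the centre in 33 of the 38 peaks (86.8%, Wilson 95% interval 72.7 to 94.2%) and in 83.7% of all peaks. Over the whole length of the peaks, the word was found in the same number, 33 of the 38 (86.8%), against 94.8% of all peaks, a share above the upper bound of that interval. Windows of the same 201 bases laid end to end over the 7 genes with a peak held it in 1417 of 1928 (73.5%), a share just above the lower bound of the same interval. The ETS core CCGGAAGT was searched on both strands, allowing 1 mismatch in the bases that flank GGAA. It was found within 100 bp of the centre in 1 of the 38 peaks (2.63%) and in 2.62% of all peaks. That match, CCGGAAGG on the minus strand, is in the SUZ12 window printed above. The windows laid end to end over the 7 genes held such a core in 46 of 1928 (2.39%). Across each whole peak, the core was found in 4 of 38 (10.5%, Wilson 95% interval 4.17 to 24.1%), namely 2 peaks of EZH2, that of SUZ12 and the last of AEBP2, against 6.39% of all peaks. A short word such as GGAA occurs in most windows of this length, and its share among the PRC2 peaks was near that of all peaks around the centre. Over the whole peak the share was lower, but the bound of 94.2% lay close to 94.8%. That bound treats the 38 peaks as independent, and peak width was not allowed for. In 1 MTF2 peak, 159 bp wide, the word lay in the 201-base window but outside the peak.

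Repeats and base composition were compared in the same way. The centre lay on an annotated repeat in 16 of the 38 peaks (42.1%) and in 42.4% of all peaks, and on a SINE in 9 (23.7%, Wilson 95% interval 13.0 to 39.2%) against 14.2% of all peaks. LINEs went the other way, with 4 of the 38 (10.5%, interval 4.17 to 24.1%) against 18.0% of all peaks, and both intervals include the share of all peaks. The SINEs were Alu elements, 6 of them under peaks named for AEBP2, and the strongest EED peak was centred on an LTR37A element. The median GC content was 39.0% for the PRC2 peaks and 38.8% for all peaks, and the median width was 434 and 400 bp. In 36 of the 38 peaks each stretch of 75 bases was unique in the genome, so reads of this length can be placed in them. The exceptions were the SUZ12 peak and 1 peak of MTF2, of which 94.1% was unique.

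The start sites of the same genes were looked at because no peak lay there. RefSeq promoters (GRCh38.p14, 250 bases before to 50 after the start) were matched for all 10 genes, 15 promoters in all. The ETS core with at most 1 mismatch was present in 4 of the 15 (26.7%), at RBBP4, PHF19 and both promoters of RBBP7, 1 of which held CCGGAAGT itself. Of all 35116 RefSeq promoters, 18.7% held such a match. These 3 genes had 0 or 1 peak, while no match lay in this window at EZH2, EED, AEBP2 and MTF2, the genes with several peaks, nor at EZH1, SUZ12 and JARID2. A match describes letters only and shows no binding.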

How the data were processed

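The peak list of the mERG ChIP-seq in VCaP cells was used as the authors deposited it. Per the file headers it holds MACS peaks on hg19, annotated with HOMER; the labels also name Bowtie2 and Picard, without versions. The peak score was computed by the authors with MACS for the 1 ChIP library, and neither a threshold nor the depth of a library is stated. Peak identifiers run to 18276, so it was not settled whether called peaks were left out.

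The 10 genes and all lists were chosen with earlier results of these data known. The genes named were all members, the other PRC2 genes, each peak of a member with up to 6 peaks and, for others, the strongest, the closest to the TSS, the first and the last; a neighbour that a peak inside a member is named for; and ERG. SUZ12P1, CUL1, CDK5RAP2, RAB14, ZBTB8OS, NEDD9, MBOAT1, RYBP, ARID2 and the second upstream peak of AEBP2 were chosen after their values were seen. Gene bodies were canonical transcripts of GENCODE release 44 on GRCh37. The background was RefSeq genes with a curated transcript. Motifs were sought within 100 bp of the peak centre, and the search was tested on simulated data. Shares have Wilson and densities exact Poisson 95% intervals. No test was made. Stricter scores, distances to the TSS, position in place of name, other gene spans and leaving out AEBP2 were tried as alternatives. The tools were pysam 0.24.0, SciPy 1.17.1, Matplotlib 3.10.9, pandas 2.3.3 and NumPy 2.4.6 under Python 3.11.15.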

Additional observations from a re-analysis of the deposited data

How the results depend on the processing

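The number of PRC2 genes with a peak and the number and median score of their peaks followed the strictness of the list by construction. With the stronger 50% of peaks by score, 4 genes, 15 peaks and a median score of 49.8 remained from 7 genes, 38 peaks and 38.9, and 100% of the peaks lay in introns in place of 97.4%. With a score of at least 50, 4 genes, 7 peaks and a median of 68.7 remained. Within 10 kb of the TSS there were 9 peaks at 6 genes, and within 1 kb 0 genes. Leaving out AEBP2, which was decided after the data were seen, gave 19 peaks, 100% of them in introns. With protein-coding genes alone, the background share was 21.0% in place of 16.6%. With the whole GENCODE gene span as the body, also tried after the data were seen, the density of AEBP2 in place of 23.0 per 100 kb was 5.36 for the 17 peaks in the span and 5.99 for all 19 named, since that span of 317 kb reaches beyond the canonical 82.7 kb. That of EED, 8.81, was 6.44 by position, with a lower bound of 2.09, and 3.87 by name, with a lower bound of 0.797 under the 1.57 of chromosome 11. Of the other alternatives, 19 planned and 24 added later gave values within the main interval, as those of EED did, or within 1.5 times the main count. Some of these could not have moved. Leaving out scores above 130, the top 1%, and peaks over 5 kb removed no peak of the group, whose highest score was 121 and widest peak 999 bp. A gene named by 0 peaks keeps a density of 0 when only the length taken for it changes. Counting by position in the gene body gave 38 peaks at 7 genes, with 2 fewer at AEBP2 and 2 more at EED.

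The list comes from 1 ChIP library against 1 control and holds only peaks above a threshold, so a gene without a peak is a gene with none called. A peak is named for the nearest TSS, so that 2 peaks inside PLEKHA5 are named for AEBP2 and 2 inside EED for MIR6755. No paired analysis was possible because there is 1 library in each group and no test. Depth, copy number and expression are not in the list, and their part in the counts was not tested.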
